A study of Mus musculus with 2 samples.

Results

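Ebf1 binding at 4 genes of NF-kB and inflammatory cytokine signalling was examined in mature 3T3-L1 adipocytes, cells of a mouse fibroblast line that store fat after a hormonal mixture. Peaks of the Ebf1 list were taken when their centre lay in an interval set around Nfkb1, Nfkbia, Ccl2 or Il6 on the mm9 build, which gave 17 of 34534 listed peaks over 523 kb. The intervals were fixed by position, not by any value of the peaks. The choice of the 4 genes was made with earlier results of these data known. Peaks are named after the gene of their interval, and none was assigned to a gene. The list comes from 1 chromatin immunoprecipitation and sequencing (ChIP-seq) library made with an Ebf1 antibody (Abnova H00001879-M01) from cells fixed with 1% formaldehyde on day 10 after MDI, the name of that mixture. A whole cell extract library without antibody was made from the same kind of cells, and its values were not analysed here. No read depth is given for the list, and there were no replicates, so no value below carries a replicate error and none was compared with a control.

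NF-kB is a family of dimeric transcription factors that switch on immune and stress genes. Nfkb1 encodes p105, which is processed to the p50 subunit, and Nfkbia encodes IkB-alpha, which holds NF-kB dimers in the cytoplasm until it is phosphorylated and degraded. Nfkbia is itself an NF-kB target and so closes a negative feedback loop. Ccl2 encodes the chemokine MCP-1, which draws monocytes into tissue, and Il6 encodes the cytokine interleukin-6. Both are NF-kB targets that fat tissue releases, more so in obesity. Ebf1 is a helix-loop-helix factor that acts in B cell and adipocyte development and binds a palindromic site.

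Promoter sequence is shown for Nfkbia and Il6, the pair matched of the 4 genes in the RefSeq promoter table, because NF-kB is known to act on both and they stand at opposite ends of the peak counts below. The 250 bases before the annotated start are given 5′ to 3′ on the gene's strand in GRCm38.p6, a build whose positions cannot be set against the mm9 peaks. Nfkbia lies on the minus strand at chr12:55492648-55492897 and Il6 on the plus strand at chr5:30012864-30013113. Capitals mark the match to the kappaB consensus, the binding motif of NF-kB, searched as GGGRNNYYCC. In it R is A or G, Y is C or T, and N is any base.

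Nfkbia: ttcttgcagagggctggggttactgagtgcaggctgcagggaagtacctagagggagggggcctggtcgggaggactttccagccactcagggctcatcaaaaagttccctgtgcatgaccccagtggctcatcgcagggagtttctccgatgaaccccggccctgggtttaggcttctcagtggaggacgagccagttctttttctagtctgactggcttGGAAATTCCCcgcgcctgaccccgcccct

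Il6: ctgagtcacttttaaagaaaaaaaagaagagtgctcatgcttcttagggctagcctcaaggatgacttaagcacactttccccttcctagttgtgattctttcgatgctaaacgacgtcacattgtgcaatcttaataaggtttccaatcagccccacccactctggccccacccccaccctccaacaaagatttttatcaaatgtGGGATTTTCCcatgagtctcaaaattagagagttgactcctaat

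Both promoters held 1 match to this pattern, searched on both strands. Looser kappaB-like stretches were not counted. In Nfkbia it ran from 29 to 20 bases before the start and read as the consensus on the opposite strand, and in Il6 it ran from 44 to 35 bases before the start on the printed strand. Of 32851 annotated starts in the table, 7.25% held such a match in the same 250 bases. The core of the Ebf site, CCCNNGGG, which reads the same on both strands, occurred in neither sequence and in 11.8% of all starts. Such matches, present or absent, describe letters in these windows and say nothing of what binds there. Sequence under the peaks themselves was not used here.

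More Ebf1 peaks were listed at Nfkbia and Ccl2 than at Nfkb1 and Il6. The 104 kb Nfkbia interval held 7 peaks or 6.73 per 100 kb (exact Poisson 95% interval 2.71 to 13.9), and the 102 kb Ccl2 interval held 7 or 6.86 per 100 kb (2.76 to 14.1). The 208 kb Nfkb1 interval held 2 peaks or 0.962 per 100 kb (0.116 to 3.47), and the 109 kb Il6 interval held 1 or 0.917 per 100 kb (0.0232 to 5.11). These intervals cover counting error only and overlap between the dense and the sparse pair. The difference was not tested, because peaks of 1 list lie in clusters and are not replicates.

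The counts were read against windows of each interval's own length laid end to end along chromosomes 1 to 19 and X. Such windows held 1.33 peaks per 100 kb on average. At least 7 peaks were found in 3.53% of 24725 windows of the Nfkbia length and in 3.44% of 25210 windows of the Ccl2 length, and both genes stood at about 5 times the mean window (5.07 and 5.17). Against windows with at least 1 peak these ratios were 2.57 and 2.61, and among peaks at or above the median score they were 8.58 at Nfkbia and 5.83 at Ccl2. For Nfkb1, 48.0% of 12359 windows had at least its 2 peaks, and for Il6, 52.0% of 23590 windows had at least its 1 peak, so the counts at these genes were common ones. A window with no peak at all made up 33.4% of those as long as the Nfkb1 interval and 48.0% of those as long as the Il6 interval. The windows were not limited to places with a gene and include unmappable sequence.

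**Figure D1:**
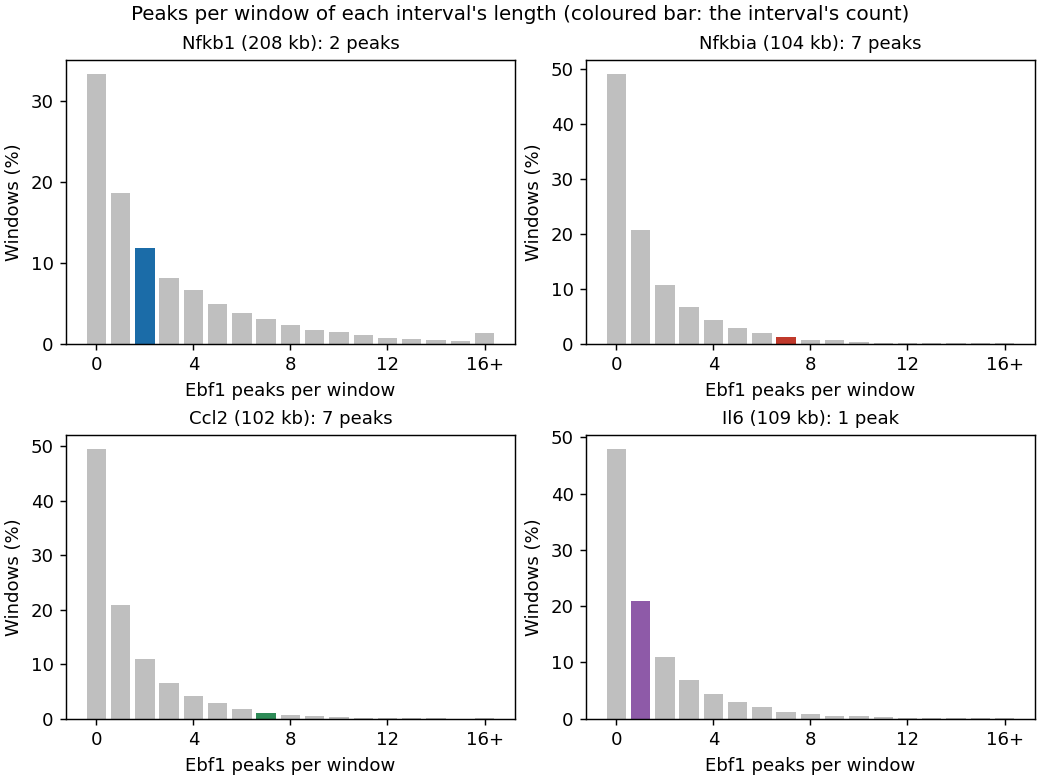
Percent of windows (vertical axis) that held each number of Ebf1 peaks (horizontal axis, 16 or more pooled), for windows of the length of each gene's interval. The coloured bar marks the gene's own count: 2 for Nfkb1 and 1 for Il6 lie among the common counts, while 7 for Nfkbia and for Ccl2 lie in the tail.

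Scores are the authors' own value for each peak, of unstated meaning, and rank peaks within this list. The median score was 18 over the 17 peaks (quartiles 11 and 29, range 8 to 64), against 13 over all listed peaks (quartiles 8 and 26). A score of at least 13 was reached by 12 of the 17, or 70.6% (exact Clopper-Pearson 95% interval 44.0 to 89.7, counting error only), beside 50.6% of the list. The top 10% of the list begins at a score of 55 and held 10.2% of all peaks, but 1 of the 17, at Nfkbia (5.88%, 0.149 to 28.7). Both intervals include the share of the whole list but treat peaks as independent. Peaks of 1 list lie in clusters, so no conclusion is drawn from these intervals. The median width was 350 bp at the 4 genes and 300 bp in the list.

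**Figure D2:**
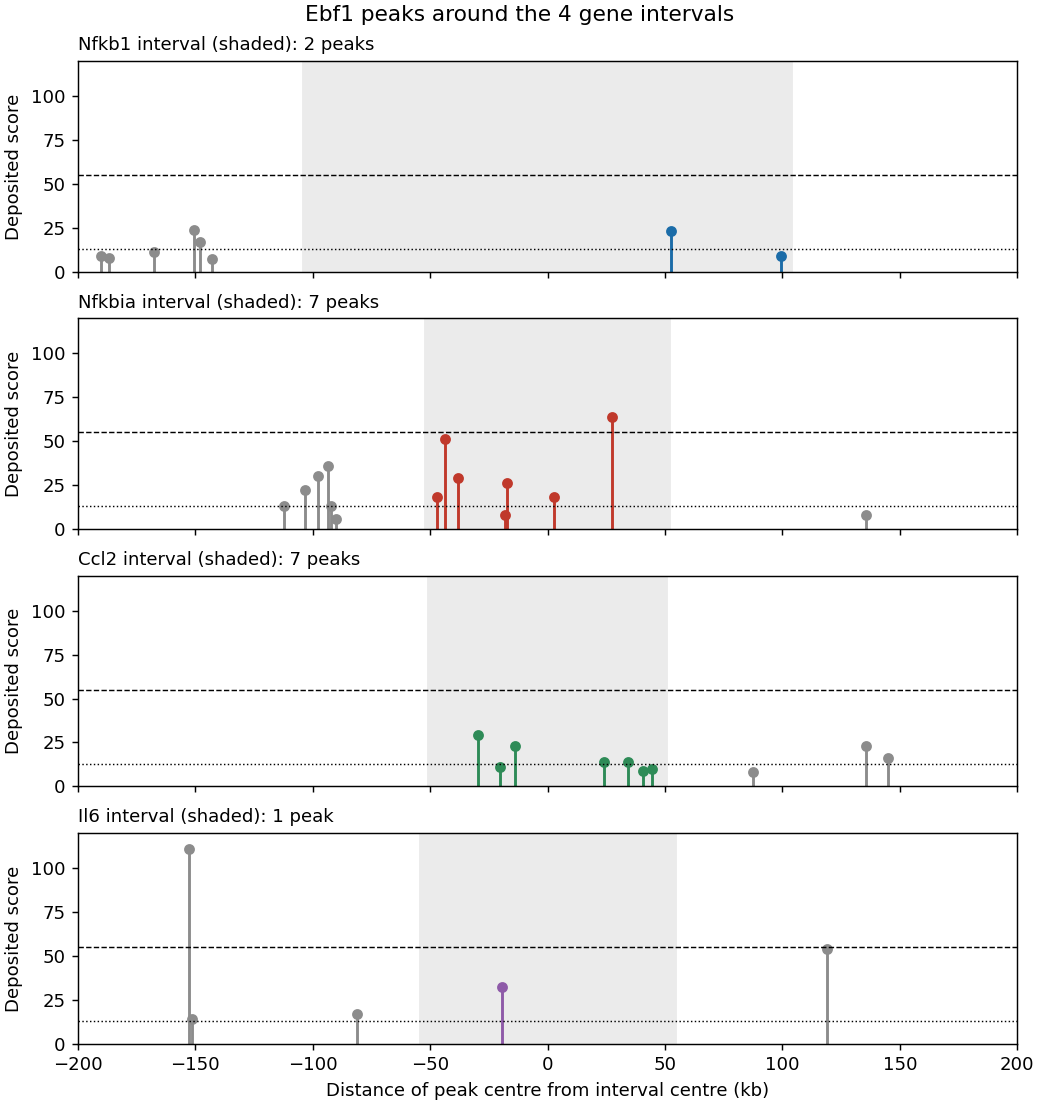
Score of each Ebf1 peak (vertical axis) against the distance of its centre from the centre of the gene's interval in kb (horizontal axis); the shaded band is the interval, coloured points lie inside it and grey points outside. The dotted line is the list median of 13 and the dashed line the score of 55 that opens the top 10%; the score of 64 at Nfkbia is the one coloured point above the dashed line.

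At Nfkb1, the subunit gene, 2 peaks were listed, 1 above and 1 below the list median score. One, at chr3:135353326-135353775, scored 23, and 29.1% of all peaks score as high or higher. Another, at chr3:135400076-135400275, scored 9 and had the narrowest width in the list, 200 bp. They lay 52.5 and 99.2 kb to the higher-coordinate side of the interval's centre and 46.6 kb from each other, so neither had a neighbour within 12.5 kb. The second of them lay 4.82 kb inside the edge. The lower-coordinate part of the interval was empty: a stretch of 195 kb without a listed peak ran from 135158251 to 135353325 and took up 75.2% of the interval, its centre included. Gaps at least that long made up 8.82% of the 34136 gaps between neighbouring peaks, whose median was 21.8 kb. The nearest peaks outside scored 7, at 38.9 kb from the lower edge, and 6, at 456 kb from the higher edge. With each edge moved inwards by 25 kb the count was 1, and with each moved outwards by 50 kb it was 5.

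Nfkbia, the inhibitor gene, carried the highest scores of the 4. Its 7 peaks scored 18, 51, 29, 8, 26, 18 and 64 in order of position, a median of 26, and 6 of the 7 reached the list median. The peak with the score of 64, at chr12:56618976-56619500, was 525 bp wide and ranked 2724 of 34534, with 8.11% of the list as high or higher. It stood 27.2 kb to the higher-coordinate side of the centre, and its nearest neighbour was 24.5 kb away. The peak with the score of 51, at chr12:56548301-56548800, ranked 3827, just short of the top 10%. It sat in a group of 3 that spanned 9.45 kb, flanked by the scores of 18 at chr12:56544651-56544925 and 29 at chr12:56553676-56554100. All 3 lay within 13.9 kb of the lower edge.

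The 3 peaks nearest the middle of the Nfkbia interval scored 26 or less, as did the outermost peak on the lower side, with 18. A pair 1.06 kb apart combined the lowest score of all 17 peaks, 8 at chr12:56573751-56573950, with a score of 26 at chr12:56574701-56575125. The peak at chr12:56594526-56594875, with a score of 18 and a width of 350 bp, lay 2.7 kb from the interval's centre, nearer than any other of the 17 lay to its own. Whether it covers the Nfkbia start was not determined, since no mm9 annotation was used. On the lower side 5 of the 7 peaks lay, and on the higher side 2. The longest empty part of the interval was its last 24.5 kb, the beginning of a gap of 108 kb, and 16.2% of gaps in the list were at least that long. The nearest peaks outside scored 6, at 38.2 kb from the lower edge, and 8, at 83.6 kb from the higher edge. The count depended on the edges, with 3 peaks when each moved inwards by 25 kb and 11 when each moved outwards by 50 kb.

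Ccl2, the chemokine gene, had as many Ebf1 peaks as Nfkbia, with lower scores. Its 7 peaks scored 29, 11, 23, 14, 14, 9 and 10 in order of position, a median of 14, and 4 of the 7 reached the list median. They fell into a group of 3 and a group of 4 on either side of the interval's centre. In the lower-coordinate group, which spanned 16 kb, the highest score of the locus, 29 at chr11:81820276-81820650, was followed by 11 at chr11:81829626-81829925 and 23 at chr11:81835851-81836300. In the other, which spanned 20.8 kb, the scores were 14 at chr11:81873876-81874125, 14 at chr11:81884051-81884350, 9 at chr11:81890676-81890875 and 10 at chr11:81894426-81894675. So the group of 3 summed to a score of 63 and the group of 4 to 47.

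Between the groups at Ccl2 lay 37.6 kb without a peak, the interval's centre included, a length that 37.6% of gaps in the list reached. On the lower side the locus was bounded by a long empty stretch, as the nearest outside peak, with a score of 6, stood 295 kb from the edge. The first peak beyond the higher edge scored 8 and stood 36.7 kb away. In the RefSeq gene order of GRCm38.p6 the genes that follow Ccl2 towards higher coordinates are Ccl7, Ccl11, Ccl12 and Ccl8, all chemokine genes. Which of them the mm9 interval includes was not determined, so these 7 peaks cannot be assigned to Ccl2 alone. Neighbouring genes in the Nfkb1, Nfkbia and Il6 intervals were not determined either, and the same limit holds for the peaks there. The count was 3 with each edge moved inwards by 25 kb and 8 with each moved outwards by 50 kb.

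Il6, the cytokine gene, had a single Ebf1 peak. It lay at chr5:30323751-30324275, 19.5 kb to the lower-coordinate side of the interval's centre, with a score of 32, a width of 525 bp and a second value of 0. A score this high is reached by 20.3% of the list, above both peaks at Nfkb1 and all 7 at Ccl2. It stood alone, with the next peaks 61.8 kb away on the lower side and 139 kb away on the higher side. From this peak a stretch of 138 kb without a listed peak ran past the higher edge and filled 67.6% of the interval, and 12.7% of gaps in the list were at least as long. The first peak beyond the lower edge scored 17 at 26.8 kb, and the first beyond the higher edge scored 54 at 64.6 kb, higher than the peak inside. With each edge moved outwards by 50 kb the count was 2.

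How closely the peaks lay together differed between the genes. Another listed peak had its centre within 12.5 kb of 12 of the 17 peaks, or 70.6%, beside 55.9% of the peaks on chromosomes 1 to 19 and X. The exact Clopper-Pearson 95% interval, 44.0 to 89.7, includes that share but treats peaks as independent. Neighbouring peaks count for each other, so the interval is too narrow and no conclusion is drawn from it. All 7 peaks at Ccl2 and 5 of the 7 at Nfkbia had such a neighbour, and none of the 3 at Nfkb1 and Il6 did. The Nfkbia peaks without one were the highest, with the score of 64, and the one with a score of 18 nearest the interval's centre. The median distance to the nearest peak was 3.76 kb at Nfkbia, 6.30 kb at Ccl2, 46.6 kb at Nfkb1 and 61.8 kb at Il6.

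Because wider peaks score higher in this list, each score was also set beside those of all peaks of its own width. At Nfkbia 6 of the 7 scored above the median of their width, and the remaining one, with a score of 26, was at it. Its score of 18 at a width of 275 bp exceeded that of 95.9% of the 2356 peaks so wide, and its score of 64 at 525 bp exceeded 81.7% of 927. At Ccl2, 5 of the 7 were above the median of their width, led by the score of 29 at 375 bp, above 93.2% of 2104 peaks, and the score of 14 at 250 bp, above 92.5% of 2802. The single Il6 peak had the same width as the highest Nfkbia peak and a score below the median of 45 for that width, above 16.6% of peaks. At Nfkb1 the score of 23 exceeded 15.3% of peaks 450 bp wide, where the median was 30, and the score of 9 exceeded 78.3% of those 200 bp wide. In all, 12 of the 17 scored above the median of their width, 1 at it and 4 below.

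**Figure D3:**
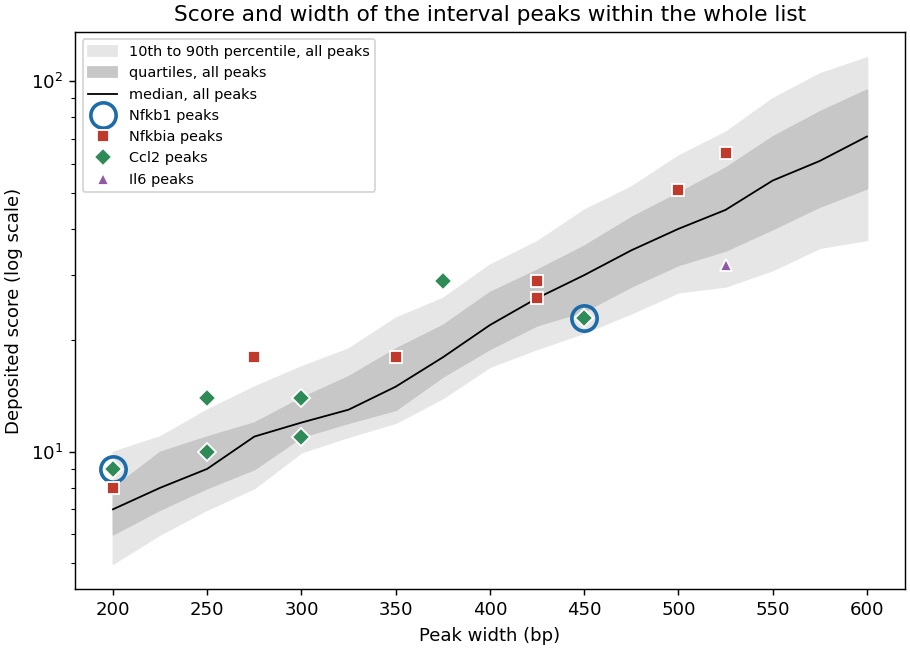
Score (vertical axis, log scale) against peak width in bp (horizontal axis) for the 17 peaks, over the median, quartiles and 10th to 90th percentiles of all listed peaks at each width up to 600 bp. The Nfkb1 peaks, drawn as open circles, coincide with Ccl2 peaks of the same width and score; the Il6 peak lies under the median of 45 at 525 bp and the highest Nfkbia peak above it.

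A second whole number given for each peak, also of unstated meaning, ranged from 0 to 4 over the 17 peaks, with a median of 1 there and in the whole list. It was 0 at 4 of the 17 peaks, or 23.5%, beside 29.8% of the list. The zeros were 1 at Nfkbia, 2 at Ccl2 and the Il6 peak, and both Nfkb1 peaks had a value of 1. The highest was 4, at the outermost Nfkbia peak on the lower side, where the score was 18, and the list reaches 15. At the peaks with the highest scores, 64 and 51 at Nfkbia, it was 2 and 1.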

How the data were processed

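Per the labels' protocols, ligation products of 275 to 700 bp were gel purified and amplified over 18 cycles. Build mm9 and SAMtools are named per the submitters' processing notes; how reads were aligned, peaks called and the extract used is not given in the sources used here. Without a header in the file, the deposited score and a second whole number carry no stated meaning and were not treated as read counts. Depth is unknown. Positions lay on a 25 bp grid and were taken as 1-based and inclusive. Peaks were placed in an interval by their centre. The members, motifs and measures were chosen with earlier results of these data known, and the promoter search and the other observations after these values were seen. Every listed peak of an interval is given, by the naming rule for 10 or fewer; nothing was filtered. No test was run: shares carry exact binomial and counts exact Poisson 95% intervals. Window counting was checked on simulated positions. With no mm9 sequence or annotation used, peaks were not placed in exons or introns, motifs under peaks were not searched, and other NF-kB pathway genes were not analysed here. An expression readout was not analysed here, so the adipocyte label was not checked against marker genes. Scripts ran under Python 3.11.15 with pandas 2.3.3 and numpy 2.4.6, intervals came from scipy 1.17.1 and plots from matplotlib 3.10.9.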

Additional observations from a re-analysis of the deposited data

How the results depend on the processing

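Of 56 alternative values, 31 counted as unmoved and 25 as moved, where unmoved means within 1.5 times for counts and distances and within the 95% interval of the main value otherwise. Taking peaks by any overlap changed none of the 4 counts, and with shifted windows the ratios to the mean window were 5.08, 5.18, 0.726 and 0.692 at Nfkbia, Ccl2, Nfkb1 and Il6. With windows holding at least 1 peak the ratio went from 5.07 to 2.57 at Nfkbia, 5.17 to 2.61 at Ccl2, 0.725 to 0.483 at Nfkb1 and 0.691 to 0.359 at Il6. With windows of the same chromosome it was 6.1, 4.08, 1.06 and 0.545, so Nfkb1 passed from below to above the mean. At or above the median score it was 8.58, 5.83, 0.715 and 1.36, and Il6 passed likewise. All of these lie within the wide counting intervals of the main ratios. Those intervals describe the count and not the choice of windows, so the move from 5.07 to 2.57 at Nfkbia still counted as unmoved. At or above the median score the counts were 1 at Nfkb1 and 4 at Ccl2. In the top 10% by score they were 1 at Nfkbia and 0 at Nfkb1, Ccl2 and Il6, where the ratio to the mean window was 0. With edges moved inwards the counts were 1 at Nfkb1 and 3 each at Nfkbia and Ccl2, and with edges moved outwards 5 at Nfkb1, 11 at Nfkbia and 2 at Il6. By score per base of width, the share of the list at or above each gene's strongest peak went from 29.1% to 37.0% at Nfkb1, 8.11% to 6.71% at Nfkbia, 22.6% to 17.2% at Ccl2 and 20.3% to 26.7% at Il6. Within the same chromosome it was 26.1%, 7.21%, 27.3% and 19.7%. The median distance to the nearest peak at or above the median score was 124 kb at Nfkb1 and 10.2 kb at Ccl2. Fewer peaks in a list give lower counts and longer distances by construction. Likewise, edges moved inwards can only keep or lower a count, and edges moved outwards can only keep or raise it. For the other moves the cause was not tested. With 1 library there was no replicate to leave out. No paired analysis was possible because values of 1 library were used. The unknown depth limits what a low score or an absent peak can show.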

Other observations

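The surroundings of the 4 loci differed. In the 1 Mb centred on the Ccl2 interval, 7 of the 11 peaks lay in the interval itself, and the rest of that 1 Mb held 0.445 peaks per 100 kb, against 6.86 inside. Around Nfkbia the rest held 1.34 per 100 kb, against 6.73 inside. Around Nfkb1 it held 1.14 and around Il6 1.68, against 0.962 and 0.917 inside. Peaks at Ccl2, in a group of 3 and a group of 4, were thus listed within a sparse stretch. The counting intervals of Nfkb1 and Il6 include the values around them. None of the peaks outside the intervals of Nfkb1, Nfkbia and Ccl2 in these 1 Mb stretches reached a score of 55, and 1 did around Il6, with a score of 111.

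The Ccl2 peak with the score of 29 was far from any peak of its own rank. The nearest peak with at least that score lay 864 kb away, where the median over the 253 peaks with this score was 39.2 kb and 1.2% were as far or farther. For the Nfkbia peak with the score of 64 the distance was 533 kb, against a median of 132 kb over 79 peaks with that score, of which 16.5% were as far. For the upper-scoring Nfkb1 peak it was 203 kb against a median of 30.2 kb, and 11.1% of 420 peaks were as far. The Il6 peak stood 133 kb from one at least as strong, against 40.6 kb, with 21.2% of 215 as far. Each of these peaks was the highest of its interval, so any peak at least as strong had to lie outside that interval. Peaks of the same score in the list were not chosen so, and these shares are thus lower through the choice. The Nfkbia peak with a score of 29, not the highest there, stood 5.34 kb from one at least as strong, and 84.5% were as far.

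A peak as near the middle as the one at Nfkbia, 2.7 kb, was found for 6.27% of windows of that length. The corresponding shares were 23.3% for 13.9 kb at Ccl2, 29.6% for 19.5 kb at Il6 and 51% for 52.5 kb at Nfkb1. Windows of the Nfkbia length held 1.38 peaks on average and 49.2% held none, against 7 peaks in its interval. The more peaks an interval holds, the nearer to its middle one tends to lie. These shares are therefore not separate from the counts above, and windows with equal counts were not compared.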
